A study of Mus musculus with 34 samples.

Results

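Wild-type (WT) cells that the labels name Sertoli cells, sorted by fluorescence-activated cell sorting (FACS), were compared with whole testes: 2 arrays of each, 4 of the 34 arrays of the series. The members were chosen by the sample titles alone. All mice were C57BL6/j and 6 to 8 weeks old, and the labels give these 4 samples no transgene, no knockout and no treatment of their own. The whole testes held every cell of the organ, while the cells were sorted directly after isolation. The marker or gate of the sort, and whether animals were pooled, are not given in the sources used here. The series states biological duplicates, so n = 2 in each group throughout. The comparison asked which transcripts the sort raised or lowered relative to the organ it was made from.

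Sertoli cells line the seminiferous tubule, hold the germ cells, form the tight junctions of the blood-testis barrier and answer follicle-stimulating hormone and androgen. Between the tubules lie Leydig cells, which make testosterone from cholesterol under luteinizing hormone, beside blood vessels and macrophages, and peritubular myoid cells wrap each tubule. Germ cells at all steps from spermatogonia to elongating spermatids make up most of the adult testis.

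Levels are given as the log2 signal of a gene's brightest probe minus the 75th percentile of its array, so a level of 0 is the signal at that percentile. Differences are sorted cells minus whole testes on the same log2 scale, with the standard error (SE) and the adjusted p of a limma model. The spread in this model came from 10 arrays in 5 groups. The groups not compared were sorted Nanos3-knockout cells and cultured Sertoli cells given vehicle or retinoic acid. They lay on other slides, and the cultured ones were scanned on another day. A gene can therefore fail to pass because of the spread in those groups. A gene passed at an adjusted p under 0.05. Of 22910 genes tested, 8793 were higher in sorted cells (38.4%) and 9356 lower (40.8%), 79.2% in all, and the median difference was -0.062. At 4-fold or more, 3887 were higher (17.0%) and 5042 lower (22.0%). The values of both groups did not overlap in 93.0% of genes, so passing is common here and the shares of each gene list are read against these. Genes named below for large differences were picked by size, so groups that stand apart in them add no support. The same-group arrays correlated across genes at r = 0.995 in whole testes and 0.9897 in sorted cells, and all 4 arrays lay on 1 slide. From 66.22% to 69.68% of spots were well above background on each.

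**Figure D1:**
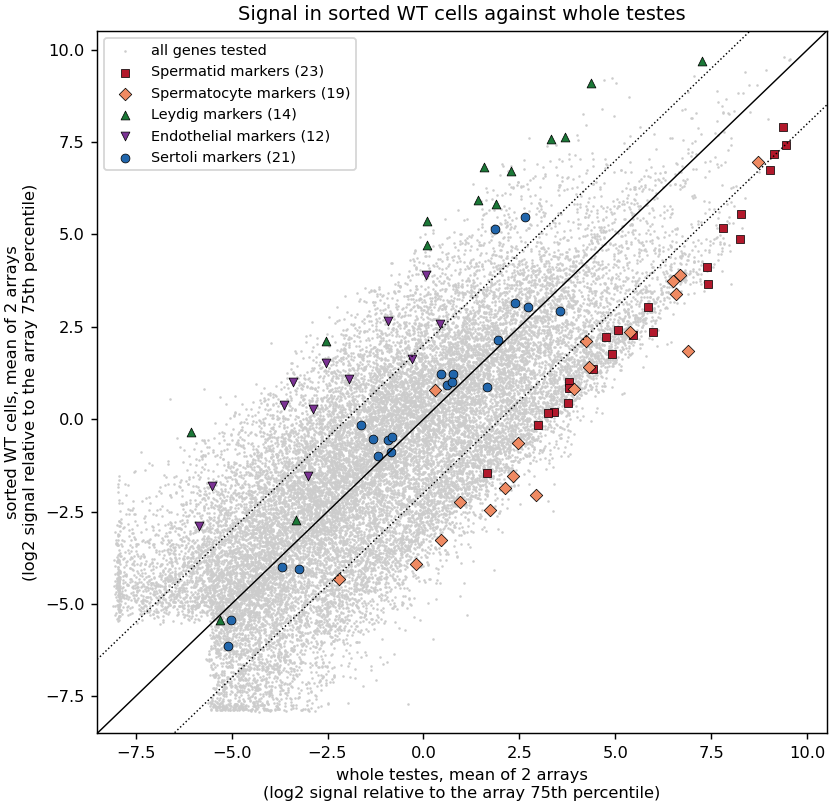
Mean log2 signal of 2 sorted WT arrays (vertical axis) against that of 2 whole testes arrays (horizontal axis) for 22910 genes, each relative to the array's 75th percentile, with marker lists in colour. The solid line marks equal levels and the dotted lines a 4-fold difference; Leydig and endothelial markers lie mostly above the upper dotted line, spermatocyte and spermatid markers mostly below the lower one, and most Sertoli markers between them.

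Sertoli markers were raised in part. Of 21 Sertoli markers tested (22 listed) 7 were higher and 2 lower, with a median difference of 0.30, and 2 of them rose 4-fold. Their summed linear signal went from 49.4 and 50.5 times the array's 75th percentile in whole testes to 108 and 142 in sorted cells. Wnt6, a secreted signal, was at 1.86 and 1.86 in whole testes and at 5.02 and 5.27 in sorted cells, and the secreted cystatin gene Cst9 was at 2.66 and 2.65 against 5.27 and 5.69. Sox9, the factor that sets Sertoli cell fate, was at -0.84 and -0.78 in whole testes and at -0.65 and -0.31 in sorted cells, a difference of 0.33 (SE 0.13) that did not pass (adjusted p = 0.0509). The tight junction gene Cldn11 was 0.45 higher (SE 0.18, adjusted p = 0.0485). This call was lost with median scaling (0.32, adjusted p = 0.267), normexp background correction (0.0767) or no detection filter (0.0771). It was also lost with only the 4 arrays fitted (0.055) or the replicate block (0.0512). The difference was 0.50 without whole testes array 1, 0.40 without array 2 and 0.28 without sorted array 2. The hormone receptor gene Fshr was at -3.24 and -3.27 against -4.73 and -3.40. Of 12 genes that Sertoli cells share with other testis cells 10 were higher and none lower, with a median of 1.83; Clu, among them, was read on 1 sorted array only.

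Leydig and endothelial markers had larger log2 differences than the Sertoli list by their medians, and larger ratios of summed signal. Of 14 Leydig markers 13 were higher, 12 of them 4-fold or more, with a median of 4.49. Their summed linear signal went from 215 and 212 in whole testes to 2240 and 2140 in sorted cells. The luteinizing hormone receptor gene Lhcgr, not well above background in whole testes, was at least 47.1-fold higher. Endothelial markers rose in 11 of 12 cases (median 3.37, sums of 4.63 and 4.66 against 48.8 and 33.8) and peritubular myoid markers in 6 of 9 with 2 lower (sums of 35.0 and 34.9 against 43.2 and 38.3). Macrophage markers rose in 7 of 13 with 1 lower (22.5 and 20.8 against 36.0 and 72.0); 4 macrophage markers were higher without whole testes array 1 and 3 without sorted array 2. Of 5 lymphocyte markers 1 was higher and 2 were lower, and of 3 erythroid markers 1 was lower. Bulk RNA cannot tell fewer cells of a type from less RNA per cell, here or below.

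Germ cell markers were lower but not gone. All 23 spermatid markers tested fell, with summed signals of 3810 and 4090 in whole testes and 1050 and 694 in sorted cells, as did 17 of 19 spermatocyte markers (917 and 1000 against 219 and 158). Of 9 spermatogonial markers 6 fell and 1, the receptor gene Kit, rose. Protamine 1 (Prm1), a packing protein of sperm DNA, was at 8.93 and 9.10 in whole testes and still at 7.07 and 6.44 in sorted cells. Given these marker values, the groups are called sorted cells and whole testes below, and the part that other cell types have in each result was not tested.

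The sorted duplicates differed from each other along the same lines. All 23 spermatid markers were higher on sorted array 1 than on sorted array 2, by a median of 0.50, while 20 of 21 Sertoli markers (median -0.41) and 12 of 13 macrophage markers (median -1.05) were lower on array 1. Immediate early genes were higher on array 1 in 33 of 37 cases, by a median of 0.61, with Egr1 at 2.80 on array 1 and 1.37 on array 2. Over 22839 genes read on all 4 arrays the median difference between the sorted arrays was -0.01.

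Among genes with a symbol that were well above background on all 4 arrays, the largest rises joined a chaperone, stress factors, a developmental regulator and lipid enzymes. Hspb8, a small heat shock protein gene, was at -3.95 and -3.98 in whole testes and at 1.80 and 2.32 in sorted cells, 6.03 higher (SE 0.21, adjusted p = 1.61e-06). Tbx3, a T-box repressor gene of organ patterning, was at -2.72 and -3.10 against 2.76 and 2.53 (difference 5.55, SE 0.18). Ier3, an early stress response gene, differed by 5.54 (SE 0.45). Each of these lay above every whole testes value on both sorted arrays. Scd1, the desaturase that makes monounsaturated fatty acids, went from -2.07 and -2.04 to 3.43 and 3.26, and Idh1, the cytosolic isocitrate dehydrogenase that yields NADPH, from -3.00 and -3.10 to 2.33 and 2.18. Ces1d, a carboxylesterase gene, was at 0.10 and 0.09 against 5.37 and 5.36. The remaining 6 of the 12 were Atf3 and Egr1, described with the early genes, the kallikrein gene Klk4 (5.30), the exporter gene Slc47a1 (5.24), the oestrogen sulphotransferase gene Sult1e1 (5.23) and the sphingomyelinase-like gene Smpdl3b (5.18).

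The 12 largest falls by the same rule were led by genes of early germ cells and of the piRNA pathway, in which small RNAs silence transposons in germ cells. Prss50, a testis serine protease gene, was at 0.32 and 0.34 in whole testes and at -4.89 and -4.83 in sorted cells (difference -5.19, SE 0.17, adjusted p = 1.49e-06). Nanos3, an RNA-binding protein gene of germ cells, was at 1.31 and 1.29 against -3.21 and -4.44, and the germ cell surface gene Tex101 was at 6.83 and 6.94 against 2.01 and 1.66. In both, each sorted value lay below each whole testes value. Piwil1, Mov10l1 and Piwil2, all of the piRNA pathway, differed by -4.99, -4.87 and -4.79. The others were Lypd11 (-5.09), Vmn1r181 (-4.85), Mlc1 (-4.75), 4930524B15Rik (-4.75), the aldo-keto reductase gene Akr1c21 (-4.68) and Crtac1 (-4.58).

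**Figure D2:**
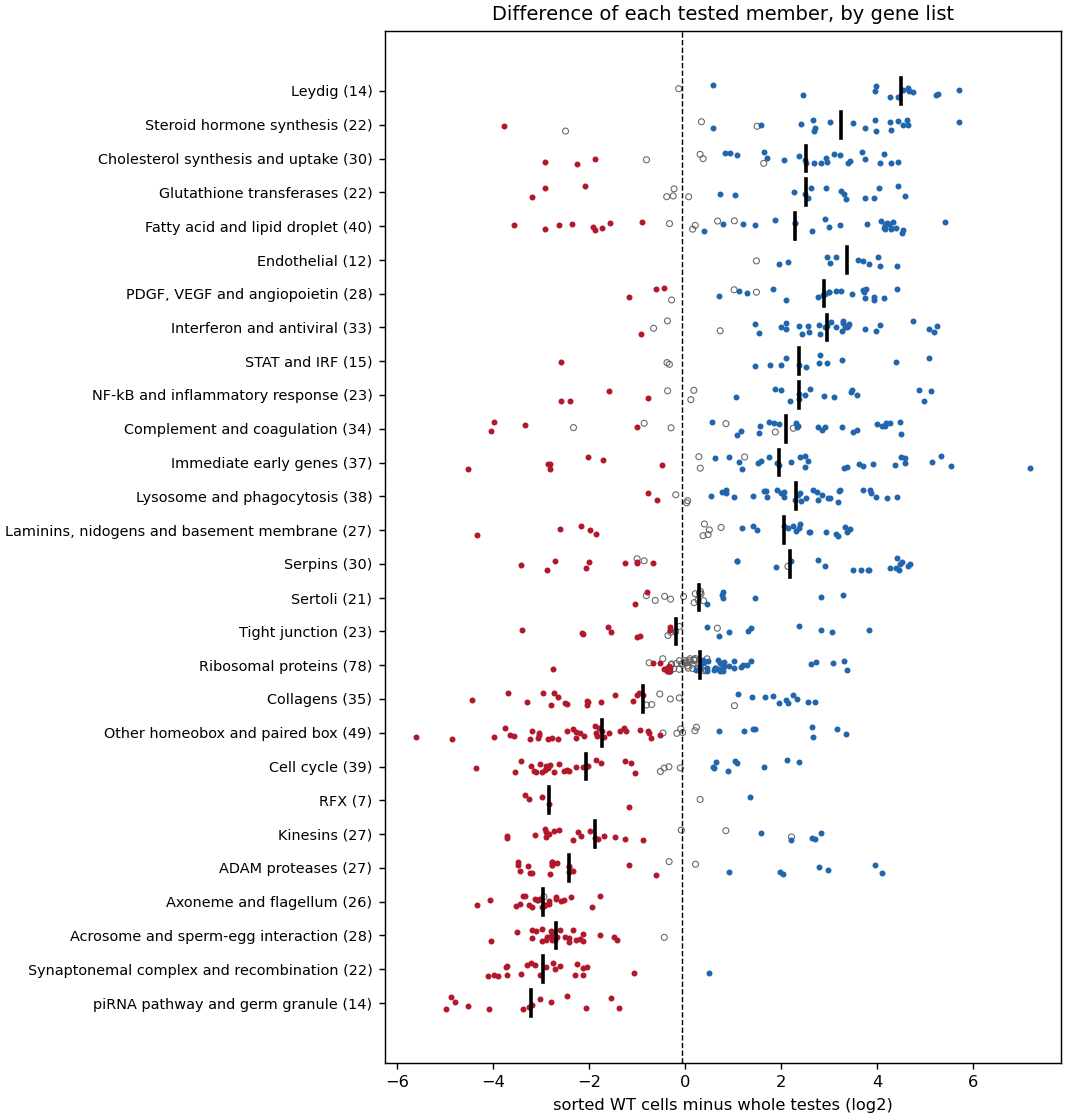
Difference of each tested member (horizontal axis, log2, sorted minus whole testes) in 28 gene lists, with the number tested in brackets. Blue and red points passed higher or lower, open points did not pass, black bars are list medians, and the dashed line is the all-gene median of -0.062; Leydig markers have a median of 4.49 and piRNA genes one of -3.22.

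Steroid and sterol genes rose, as did the Leydig markers. The steroid and Leydig lists share several members, among them Lhcgr and the Cyp11a1, Hsd3b6 and Hsd17b3 described next, so their counts are not independent. Steroid hormones are made from cholesterol, which side-chain cleavage in mitochondria turns into pregnenolone, and dehydrogenases then turn into testosterone. Of 22 steroid synthesis genes (23 listed) 18 were higher, 16 of them 4-fold or more, and 1 was lower, with a median of 3.25. Cyp11a1, the side-chain cleavage enzyme gene, was at 2.25 and 2.31 in whole testes and at 6.55 and 6.89 in sorted cells (difference 4.44, SE 0.34, adjusted p = 2.04e-05). Hsd3b6 was at 0.16 and 0.03 against 4.49 and 4.96, and Hsd17b3, whose enzyme makes testosterone, at 1.41 and 1.42 against 5.79 and 6.11. Both sorted arrays stood above both whole testes arrays in all 3. The member that fell was aromatase, Cyp19a1, the enzyme that makes oestrogen (difference -3.77), with 1 sorted array above background. Hsd17b1 (0.34, adjusted p = 0.12) and Cyp21a1 did not pass, and probes of the Hsd3b genes may read close copies of one another.

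Cholesterol supply followed: 23 of 30 genes of its synthesis and uptake were higher, 18 of them 4-fold or more, and 3 were lower, with a median of 2.51. Along the pathway Hmgcs1, which starts the mevalonate route, went from 2.06 and 2.14 to 5.84 and 5.71 by its brightest probe while its other probe was 1.39 lower (-1.39), Msmo1, a sterol demethylase gene, from 2.22 and 2.19 to 6.58 and 6.69, and the late enzyme gene Dhcr7 rose by 4.14. Cyp51 did not pass, at 1.87 and 1.88 against 2.24 and 2.25. Fdft1, the squalene synthase gene, was at 4.88 and 4.80 against 4.04 and 4.03 (adjusted p = 0.0575).

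Lipid storage and detoxification genes belonged to the same side. Among 40 genes of fatty acid metabolism and lipid droplets 26 were higher and 9 lower (median 2.28). Plin5 and Plin1, coat proteins of lipid droplets, rose by 4.54 and 4.39, and the fatty acid carrier gene Fabp3 went from 4.89 and 4.93 to 9.29 and 9.17, where its spot was saturated on 1 array. Glutathione transferases, which couple glutathione to reactive compounds, were higher in 15 of 22 cases, 13 of them 4-fold, and lower in 3, with a median of 2.52. Gsta3, which also has a known role in steroid isomerization, was at 2.20 and 2.38 in whole testes and at 6.82 and 6.89 in sorted cells (SE of the difference 0.24), and the microsomal Mgst1 at 1.47 and 1.51 against 5.86 and 5.97. The 3 that fell were Gsto2 (-3.20), Gstt4 (-2.92) and Gstm5 (-2.09); the call of Gstt4 was lost without whole testes array 1 (adjusted p = 0.0501) or 2 (0.0573) or sorted array 2 (0.0712). Cytochrome P450 genes split, with 19 higher and 18 lower of 50, and their median of -0.04 turned to 0.16 with normexp background correction: Cyp2j6, Cyp4f15 and Cyp11a1 rose by 5.02, 4.68 and 4.44, while Cyp2r1 was at least 12.7-fold lower. Of 15 hydroxysteroid dehydrogenases 12 were higher (median 3.70). Antioxidant genes, 24 higher and 10 lower of 38, included Nqo1 (difference 4.49), a quinone reductase gene induced by Nrf2, and catalase, Cat (4.26).

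Receptors that let testis cells sense hormones were raised in part. Of 19 tested (26 listed) 10 were higher, 7 of them 4-fold, and 3 lower, with a median of 1.44 (0.62 with normexp background correction). Among the 13 above background on all 4 arrays 6 were higher. The prolactin receptor gene Prlr was at -2.46 and -2.63 in whole testes and at 2.09 and 2.14 in sorted cells, 4.66 higher (SE 0.31). The growth hormone receptor gene Ghr was at -4.11 and -4.18 against -1.41 and -1.38. The groups did not overlap in either gene. The prostaglandin receptor gene Ptgfr was at least 3.50-fold lower but did not pass with normexp (difference -0.73, adjusted p = 0.169), and the corticotropin receptor gene Mc2r (0.33) and the vitamin D receptor gene Vdr (0.35) did not pass. Enzymes of prostaglandins, lipid signals made from arachidonic acid, were higher in 13 of 17 cases and lower in none (median 1.94). Ptgds, which makes prostaglandin D, was at 4.13 and 4.17 against 8.45 and 8.09, and the cyclooxygenase gene Ptgs1 at -5.52 and -5.45 against -1.10 and -1.69.

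Immediate early genes, transcribed within minutes of a stimulus without new protein synthesis, were prominent among the rises. Of 37 tested (38 listed) 27 were higher, 18 of them 4-fold or more, and 7 lower, with a median of 1.95. Fos, which with Jun forms the AP-1 factor, was not well above background on either whole testes array and at 1.23 and -0.11 in sorted cells, at least 91.0-fold higher (adjusted p = 1.36e-05). Egr1, a zinc finger factor of growth signals, was at -3.11 and -3.01 in whole testes and at 2.80 and 1.37 in sorted cells, 5.15 higher (SE 0.55). Atf3, a stress-induced repressor, was at -5.23 and -5.62 against 0.68 and -0.86. In these 3 genes sorted array 1 was higher than sorted array 2 by more than 1 log2 unit, and the groups did not overlap. Zfp36, whose protein speeds decay of cytokine RNAs, rose by 4.57 (SE 0.60), and Myc was at least 14.9-fold higher.

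The rise was not shared by every early gene. Nr4a3, an orphan nuclear receptor gene, was at -2.49 and -2.60 in whole testes and below background in sorted cells, at least 8.42-fold lower, and Egr4 and Egr3 were lower too (Egr4 by -2.82, Egr3 at least 3.46-fold). Egr3 did not pass with normexp background correction (difference -0.62, adjusted p = 0.173). Among early genes above background on all 4 arrays 4 of 32 were lower. Nr4a2 (0.28) and Ier5 (0.31) did not pass. As a family the AP-1 and related leucine zipper genes had 18 higher and 3 lower of 25 (median 2.23), with Junb at 0.01 and 0.09 against 4.90 and 4.16. Hours or temperature of the cell isolation are not given in the sources used here, and their part was not tested.

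The widely expressed and the germ cell heat shock lists differed. Of 21 genes of the widely expressed list 13 were higher and 7 lower (median 0.50). Of 13 genes of the germ cell list none was higher and 11 were lower (median -3.03). As written, both lists hold heat shock factor genes beside chaperones. The mitochondrial chaperonin genes Hspd1 and Hspe1 rose together: Hspd1 was at 2.38 and 2.35 in whole testes and at 5.52 and 5.71 in sorted cells, and Hspe1 at 2.19 and 2.22 against 4.96 and 4.91. Hspa1a, the classical inducible gene, rose by 2.29 (SE 0.72, adjusted p = 0.0222), a call lost when any 1 array was left out (adjusted p from 0.0591 to 0.101), while Dnajb1, an HSP40 gene, went from 6.26 and 6.23 to 3.98 and 4.01. On the germ cell side Hspa2, needed for meiosis, fell from 6.57 and 6.60 to 3.48 and 3.28, and Hspa1l from 3.88 and 3.82 to 0.97 and 0.37.

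Hspd1 and Hspe1 lie head to head, and the stretch before both starts holds the only heat shock elements found in the list. They are shown because 1 stretch of DNA precedes 2 genes that moved alike. The element searched was TTC, any 2 bases, GAA, any 2 bases, TTC on either strand in the 250 bases before a start. It is held by 0.514% of 27025 genes in the RefSeq promoter table (GRCm38.p6). In the widely expressed heat shock list it is held by 2 of 15 tested genes with a promoter entry. Capitals mark the matches, 2 that overlap, at chr1:55088039-55088096, on the minus strand for Hspd1 and the plus strand for Hspe1.
Hspd1: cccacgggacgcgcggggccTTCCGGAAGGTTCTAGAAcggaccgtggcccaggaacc
Hspe1: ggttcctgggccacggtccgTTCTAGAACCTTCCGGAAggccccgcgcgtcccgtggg
The match ends 127 bases before the Hspd1 start and 72 before the Hspe1 start. A match describes the letters only.

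Interferon-stimulated genes, which cells switch on against viruses through STAT and IRF factors, mostly rose. Of 33 tested (37 listed) 29 were higher, 26 of them 4-fold or more, and 1 was lower, with a median of 2.96, against 17.0% of all genes higher by 4-fold. Ifit1 and Rsad2, both antiviral effectors, were not well above background in whole testes and were at least 11.4-fold and 9.46-fold higher in sorted cells. Iigp1, a GTPase gene of cell defence, was at -3.82 and -3.62 against 1.06 and 0.98, and Bst2, which tethers viruses to the membrane, at -0.17 and -0.09 against 4.0 and 3.86. Both sorted arrays lay within 0.14 of each other in both genes. Ifitm1 was the member that fell (-0.92, SE 0.22, a call lost with normexp background correction), and Zbp1, Dhx58 and Oasl1 did not pass.

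The interferon response element is GAAA, any 2 bases, GAAA, searched on both strands. It was present before 12 of 27 interferon list genes that have a promoter entry (44.4%), against 3.46% of all promoters in the table and 3.32% of those tested. The stretches before Ifit1 (chr19:34640765-34640833, plus strand), Rsad2 (chr12:26456543-26456592, minus strand) and Isg15 (chr4:156200855-156200916, minus strand) show the element, with matches in capitals.
Ifit1: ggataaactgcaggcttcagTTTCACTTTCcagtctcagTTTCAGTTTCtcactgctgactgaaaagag
Rsad2: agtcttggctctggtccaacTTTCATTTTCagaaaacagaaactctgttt
Isg15: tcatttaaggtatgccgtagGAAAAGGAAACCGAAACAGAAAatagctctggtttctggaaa
Ifit1 holds 2 matches on its minus strand, Rsad2 1 and Isg15 3 that overlap. Isg15, a ubiquitin-like modifier gene picked for its sequence after its values were seen, was at -4.25 and -4.23 in whole testes and at -0.81 and -1.0 in sorted cells.

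STAT and IRF factor genes, some of which also stand in the interferon list, were mostly higher as well. Their part in the rise of that list was not tested. Of 15 STAT and IRF genes 12 were higher and 1 lower, with a median of 2.37. Irf8, a factor of myeloid cells, was at -0.80 and -0.89 in whole testes and at 4.0 and 4.44 in sorted cells, 5.06 higher (SE 0.16). Stat5b, which relays growth hormone and prolactin, was at -1.91 and -1.76 against 2.52 and 2.60, and Irf1 at -0.96 and -0.98 against 2.71 and 1.86. The Stat5b values are of its brightest probe, and its probes disagreed in direction. Stat4 was the member that fell, from 4.2 and 4.17 to 1.79 and 1.43. Irf3 did not pass. Of 7 Toll-like receptor genes, sensors of microbial molecules, 6 were 4-fold higher; Tlr3, Tlr1 and Tlr4 of these were not above background in whole testes and entered the test through the sorted cells alone. Among the 4 above background on all 4 arrays 3 were higher. The median of 3.1 was 1.22 with normexp, where Tlr4 did not pass (0.79, adjusted p = 0.211). Tlr6 went from -4.77 and -4.97 to -1.12 and -0.77.

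Macrophage markers rose in part beside these lists. On sorted array 1 the median macrophage marker was 1.05 lower than on sorted array 2. The median interferon gene was 0.11 lower and the median STAT or IRF gene 0.18 lower. This is 1 pair of arrays, and the part of macrophages in these lists was not tested. Of 18 antigen presentation genes 11 were higher and 4 lower (median 1.95). The members split by class. The class I light chain gene B2m, whose product sits on nearly all cells, was at 0.81 and 0.83 in whole testes and at 4.66 and 4.67 in sorted cells. The 4 that fell serve class II, which antigen-presenting cells use: H2-Eb1 (-2.10), H2-DMb1 (-1.63), H2-DMa (-1.45) and H2-Ab1 (-1.39, a call lost when any 1 array was left out, with adjusted p from 0.0646 to 0.0697), while H2-Aa, at -3.43 and -3.48 against -3.18 and -3.18, did not pass. Tap2, a subunit of the peptide transporter, rose by 3.15 and its partner Tap1 did not pass, at -1.64 and -1.60 against -2.05 and -1.50.

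NF-kB genes, targets and subunits of the factor that drives inflammation, had 16 higher and 4 lower of 23, with a median of 2.37. The subunit genes Nfkb1, Relb and Nfkb2 rose by 3.48, 2.49 and 2.18, whereas Rela was at 1.76 and 1.69 against 1.70 and 2.11 and did not pass. Among targets the adhesion gene Vcam1 was at 0.54 and 0.56 in whole testes and at 5.34 and 5.50 in sorted cells, and the cytokine brake Socs3 at -2.67 and -2.87 against 2.71 and 1.68. The interleukin gene Il1b did not pass, at -4.46 and -4.21 against -4.38 and -5.03.

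The NF-kB site, shown in capitals before Nfkb2, was searched in those letters on both strands. Among genes with a promoter entry it stood before 7 of 1856 that were 4-fold higher (0.377%). It stood before 1 of 2268 that were 4-fold lower (0.0441%), against 0.159% of all promoters and 0.196% of those tested. Few promoters hold this exact letter string, and no test was made. The 7 were Mdfic, Anxa4, Csf1, B2m, Ltb, Cyld and Nfkb2, and the 1 was Birc5. Those before Csf1 (chr3:107760594-107760643, minus strand), B2m (chr2:122147541-122147590, plus strand) and Nfkb2 (chr19:46305685-46305734, plus strand) are shown, chosen after values were seen because all 3 belong to immune lists above or below.
Csf1: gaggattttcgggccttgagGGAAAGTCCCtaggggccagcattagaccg
B2m: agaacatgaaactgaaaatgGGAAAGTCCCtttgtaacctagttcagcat
Nfkb2: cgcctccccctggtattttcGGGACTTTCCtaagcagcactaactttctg
Csf1 and B2m hold the site on the opposite strand of the gene, and Nfkb2 on its own strand.

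Complement and coagulation genes, plasma proteins that tag microbes or clot blood, were higher in 24 of 34 cases and lower in 4, with a median of 2.10. The proteases C1ra and C2 rose by 4.26 and 4.16, from 2.59 and 2.62 to 6.72 and 6.81 for C2. C3, the central component, was at -0.35 and -0.53 against 4.06 and 3.23. On the clotting side Tfpi and Procr, both of which restrain clotting, rose by 4.49 and 4.47. Lysosomal genes were higher in 33 of 38 cases and lower in 2 (median 2.31), Ctsh from 1.79 and 1.80 to 6.17 and 6.25 and Lamp2 from 1.58 and 1.59 to 5.52 and 5.59. Lamp1 did not pass, at 5.17 and 5.15 against 4.89 and 5.05.

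Transcription factors as a class stood close to the background. Of 451 tested genes in 24 families 203 were higher (45.0%) and 175 lower (38.8%), with a median of 0.28; the families differed. AP-1, STAT and IRF, and ETS genes had medians of 2.23, 2.37 and 1.5, while the paired box and other homeobox genes had one of -1.74, with 8 higher and 35 lower of 49 (13 lower with normexp background correction), and RFX genes one of -2.84; with normexp these medians were -0.54 and -1.02.

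**Figure D3:**
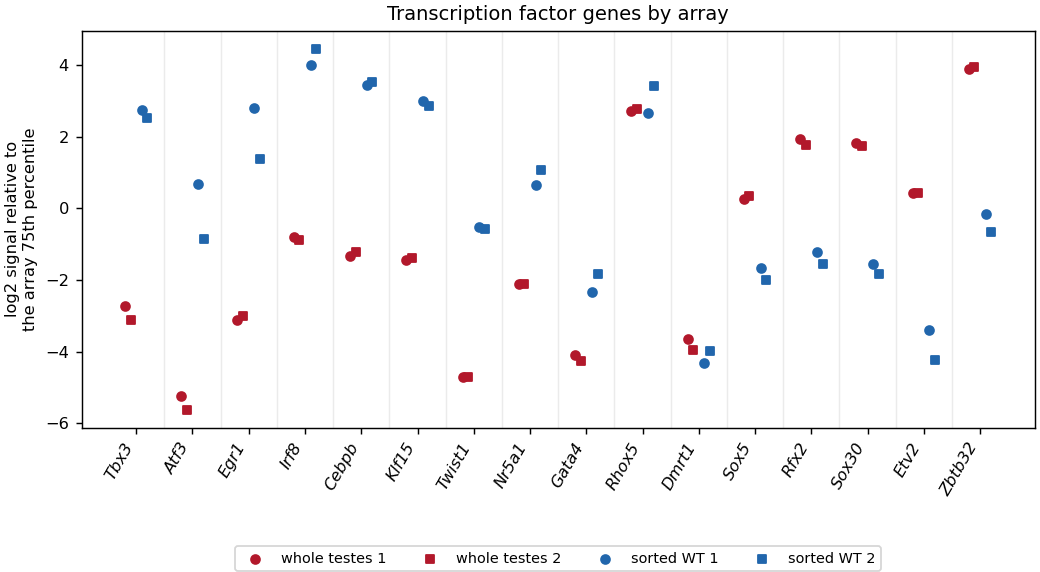
Log2 signal (vertical axis, relative to the array's 75th percentile) of 16 transcription factor genes on the 2 whole testes arrays (red) and the 2 sorted arrays (blue), ordered by their difference. Tbx3 stands 5.55 higher and Zbtb32 lower by a difference of -4.33. The values of Rhox5 overlap between groups, and those of Dmrt1 lie close without overlapping.

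Several factors known from steroid-making and fat cells rose, though by less than Tbx3 (5.55), Atf3 (5.33), Egr1 (5.15) and Irf8 (5.06). Cebpb, a leucine zipper factor of fat and steroid cells, was at -1.33 and -1.21 in whole testes and at 3.44 and 3.52 in sorted cells (difference 4.75, SE 0.10, adjusted p = 1.25e-06). Klf15, a Kruppel-like regulator of metabolism, was at -1.43 and -1.40 against 3.0 and 2.86. Nr5a1, also called SF-1, the master factor of steroidogenic genes, was at -2.10 and -2.12 against 0.66 and 1.07. None of these 3 overlapped between groups. Among other nuclear receptors the retinoid X receptor gene Rxra rose by 3.79 and Nr2f2, of interstitial and venous cells, by 3.39. The rise of Rxra is by its brightest probe, and its probes disagreed in direction. Rxrb and Esrra did not pass. The SF-1 site CAAGGTCA was found before none of 15 steroid synthesis genes with an entry, against 1.51% of all promoters.

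Factors of position and lineage moved both ways. Twist1, a mesenchymal basic helix-loop-helix gene, was at -4.72 and -4.72 against -0.53 and -0.56. Of 31 HOX and TALE genes, which mark position along the body, 15 were higher (9 of 22 among those above background on all 4 arrays) and 9 lower: Hoxc6, Hoxd10 and Hoxd9 rose by 4.35, 4.18 and 4.08, and Irx5 and Irx2 were at least 7.72-fold and 4.77-fold lower. With normexp background correction Irx2 did not pass (difference -0.85, adjusted p = 0.0532). Foxc1, a mesenchymal forkhead gene, rose by 4.84 and was above background on 1 whole testes array. Sox18, Sox7 and Sox13 rose by 2.63, 2.56 and 2.31, of which Sox18 and Sox7 are known from endothelium, while Sox17, also endothelial, was at 0.65 and 0.77 against 1.03 and 0.82 and did not pass. Fli1 and Ets1, ETS factors of vessels and blood cells, rose by 3.71 and 2.35. Probes of Ets1 disagreed in direction, and its rise is by the brightest one.

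Factors known from Sertoli cells gave no common direction. Gata4, shared with Leydig cells, was at -4.10 and -4.25 in whole testes and at -2.34 and -1.83 in sorted cells (difference 2.09, SE 0.19), Gata6 rose by 1.08 and Gata1 by 0.79, and their cofactor gene Zfpm2 fell from -2.51 and -2.60 to -4.27 and -4.23. Dmrt1, which keeps Sertoli cells male, was at -3.65 and -3.96 against -4.33 and -3.98, and the androgen-regulated homeobox gene Rhox5 at 2.71 and 2.76 against 2.66 and 3.41. Neither passed. The groups overlapped in Rhox5 but not in Dmrt1, where both sorted values lay below both whole testes values.

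Several factors fell, some of them known from germ cells. Zbtb32 was at 3.89 and 3.96 in whole testes and at -0.14 and -0.67 in sorted cells, Kdm4d, a histone demethylase gene of spermatids, at 4.59 and 4.50 against 0.88 and 0.60, and Etv2 at 0.43 and 0.43 against -3.39 and -4.24. Sox30, needed for spermatid development, fell by 3.47, from 1.84 and 1.73 to -1.55 and -1.83. Among DMRT genes Dmrtc2, of meiotic cells, fell from 3.65 and 3.69 to 0.43 and 0.14. Pax1 was not above background in sorted cells, at least 25.3-fold lower. Creb3l4, a membrane-bound factor of spermatids, fell from 6.71 and 6.67 to 4.06 and 3.58, while its relatives Creb3l1 and Creb3l2 rose by 4.15 and 2.89.

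RFX factors, which bind the X-box before genes of cilia and of the sperm tail, were lower in 5 of 7 cases. Rfx2, a regulator of spermatid genes, was at 1.94 and 1.78 in whole testes and at -1.22 and -1.56 in sorted cells, 3.25 lower (difference -3.25, SE 0.42), Rfx3 was at 1.76 and 1.70 against -0.94 and -1.57, and Rfx4 at -0.08 and -0.08 against -3.10 and -3.70. The immune member Rfx5 did not pass, and Rfx7 rose by 1.35 by its brightest probe, though its probes disagreed in direction. The X-box searched was GTTGCC, any 2 bases, GG, any base, AAC on either strand. It stood before 14 of 2268 genes that were 4-fold lower (0.617%) and 1 of 1856 that were 4-fold higher (0.0539%), against 0.292% of all promoters and 0.383% of those tested, and before none of the 22 axoneme list genes with an entry. No test was made. The stretches before 4 cilium genes among the 14, chosen after their values were seen, show the element in capitals: Dnaaf6 (chr1:31222760-31222813, plus strand), Pifo (chr3:106001498-106001537, minus strand), Ttc26 (chr6:38381471-38381523, plus strand) and Cfap298 (chr16:90935004-90935057, minus strand).
Dnaaf6: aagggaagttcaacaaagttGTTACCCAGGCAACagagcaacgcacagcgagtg
Pifo: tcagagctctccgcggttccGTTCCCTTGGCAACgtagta
Ttc26: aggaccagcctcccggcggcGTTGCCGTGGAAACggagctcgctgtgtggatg
Cfap298: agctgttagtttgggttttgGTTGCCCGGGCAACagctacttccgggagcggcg
Dnaaf6, of dynein assembly, was at -1.12 and -1.10 in whole testes and at -5.07 and -5.75 in sorted cells. Pifo was at 3.06 and 2.97 against 0.03 and -0.48. Ttc26, a part of the cilium's transport machinery, was at -0.02 and -0.02 against -2.16 and -2.60, and Cfap298 at 6.44 and 6.44 against 4.32 and 4.10. Their groups did not overlap.

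Secreted factors stood likewise near the background as a class: of 424 tested genes in 22 families 177 were higher (41.7%) and 148 lower (34.9%), with a median of 0.32. Serpins, laminins and basement membrane genes, and cystatins had medians of 2.17, 2.06 and 1.87, whereas FGF ligands and defensins had medians of -1.37 and -1.10 (-0.62 and -0.27 with normexp). Of 8 FGF ligands 6 were lower (3 with normexp), and of 27 defensins and WAP proteins 14 were lower (7 with normexp and 9 without sorted array 2).

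**Figure D4:**
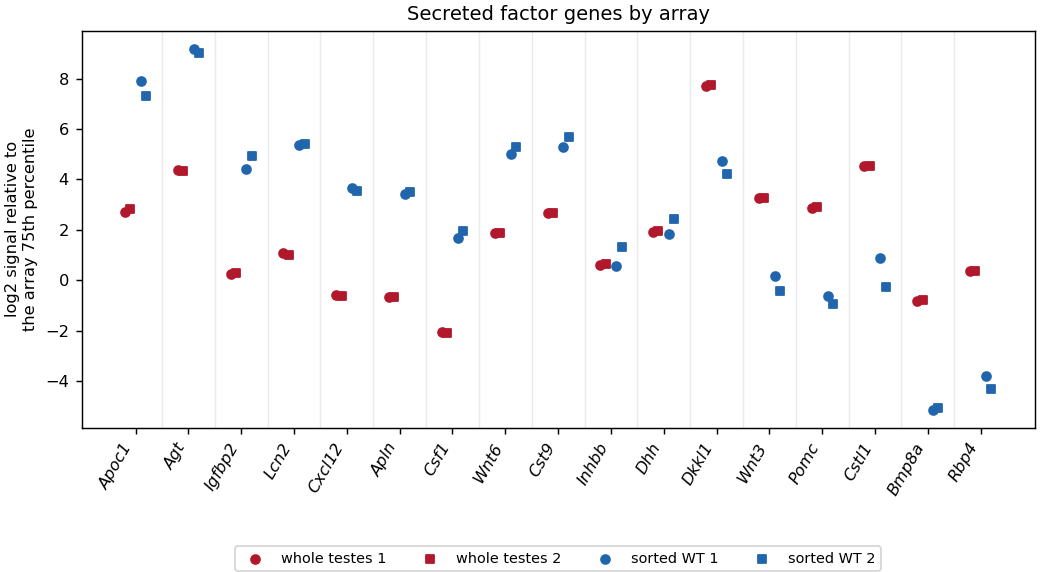
Log2 signal (vertical axis, relative to the array's 75th percentile) of 17 secreted factor genes on the 2 whole testes arrays (red) and the 2 sorted arrays (blue), ordered by their difference. Apoc1 and Agt stand 4.86 and 4.74 higher and Rbp4 lower by a difference of -4.43, and Dhh and Inhbb overlap between groups.

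Among plasma-type proteins and carriers Agt, the precursor of angiotensin, was at 4.38 and 4.33 in whole testes and at 9.17 and 9.03 in sorted cells (difference 4.74, SE 0.14). Apoc1, of lipoprotein particles, was at 2.70 and 2.82 against 7.90 and 7.33, and the iron-siderophore binder Lcn2 at 1.10 and 1.01 against 5.37 and 5.42. The groups stood apart in all 3, and the call of Lcn2 (adjusted p = 0.0113) was lost without sorted array 2 (0.0512). Rbp4, the carrier of retinol in blood, moved the other way, from 0.39 and 0.35 to -3.80 and -4.32, and the retinoic acid-binding Crabp1 was at least 8.84-fold lower. Of 30 serpins, inhibitors of proteases, 18 were higher and 9 lower (4 with normexp, and 4 of the 19 above background on all 4 arrays); Serpinb1a was at -0.39 and -0.39 against 4.03 and 4.02. Cystatins, inhibitors of cathepsins, split by site of expression: Cstb and Cst3 rose by 3.84 and 3.54, while the germ-line members Cstl1 and Cst13 fell from 4.52 and 4.52 to 0.89 and -0.26 and from 5.27 and 5.29 to 2.59 and 1.25. Kallikrein genes Klk1b24, Klk1b27 and Klk1b21 rose by 4.80, 4.30 and 4.30, though these near-identical copies may share probe signal.

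Signals that act on germ cells and on blood cells came next. Cxcl12, the chemokine that guides stem cells, was at -0.58 and -0.63 in whole testes and at 3.67 and 3.55 in sorted cells, and Csf1, the growth factor of macrophages, at -2.07 and -2.08 against 1.67 and 1.94. Each lay clear of its whole testes values. Cxcl10 and Cxcl1, induced by interferon and by NF-kB, were not above background in whole testes and were at least 17.4-fold and 13.3-fold higher. Of 20 niche signals and their receptors 11 were higher and 5 lower (1 with normexp; median 1.24): the receptor genes Kit and Lifr rose by 4.75 and 3.94 and the ligand Kitl by 1.44, while Gdnf, the stem cell factor of Sertoli cells, was at -5.24 and -4.96 in whole testes and not above background in sorted cells. Nrtn, a relative of Gdnf, fell from -0.25 and -0.21 to -2.17 and -2.52.

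Growth factor families were mixed. Among insulin-like factor binding proteins Igfbp2 was at 0.24 and 0.27 in whole testes and at 4.42 and 4.95 in sorted cells, Igfbp7 at 3.1 and 3.15 against 6.89 and 6.79, and Igf1 itself did not pass, at -0.35 and -0.31 against -0.81 and -0.34. The relaxin gene Rln3 fell from -1.11 and -0.84 to -3.82 and -4.29. Of 24 TGF-beta superfamily ligands 11 were higher and 10 lower (4 with normexp). Lefty2, an inhibitor of Nodal, and Tgfb2 were not above background in whole testes and were at least 36.2-fold and 15.5-fold higher, and Bmp6 rose by 3.36. The germ cell ligands Bmp8a and Bmp8b fell, Bmp8a from -0.84 and -0.77 to -5.14 and -5.09 and Bmp8b at least 8.75-fold. Inhbb, the inhibin subunit of Sertoli cells, was at 0.60 and 0.63 against 0.56 and 1.30, and Amh, low in adult Sertoli cells, at -5.44 and -4.59 against -6.18 and -4.71; neither passed. The activin receptor gene Acvr1 rose by 4.75.

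Wnt, Hedgehog and Notch pathways moved part by part. Among 14 Wnt ligands 5 were higher and 8 lower (3 with normexp): Wnt6 and Wnt10a rose by 3.29 and 3.30, Wnt5a was at least 5.82-fold higher, and Wnt3 fell from 3.25 and 3.26 to 0.18 and -0.44. Dkkl1, a secreted protein of the acrosome, fell from 7.72 and 7.76 to 4.75 and 4.22. Dhh, the hedgehog ligand that Sertoli cells send to Leydig and myoid cells, was at 1.90 and 1.97 against 1.84 and 2.44 and did not pass. Of the 10 Hedgehog genes tested 5 were higher and 3 lower. The transducer gene Smo rose by 3.22, the coreceptor genes Cdon, Gas1 and Boc by 3.37, 2.93 and 2.60, and the receptor gene Ptch1 was at least 2.73-fold higher. Sufu, an inhibitor of the pathway, fell from 3.77 and 3.70 to 0.45 and -0.21, and the kinase gene Stk36 differed by -2.52. In the Notch pathway Notch3, of pericytes and smooth muscle, was at -3.72 and -3.56 against 1.20 and 0.52, whereas the ligand gene Jag1 fell by 2.93, from -0.06 and -0.04 to -2.89 and -3.07 by its brightest probe. The other Jag1 probe was 3.75 higher in sorted cells, so its direction depends on the probe.

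Vascular signals rose, as did the endothelial markers, with which their list shares some members. Of 28 PDGF, VEGF and angiopoietin genes 22 were higher, 18 of them 4-fold, and 3 lower, with a median of 2.89. Vegfd was at -1.12 and -0.96 in whole testes and at 3.34 and 3.40 in sorted cells, the apelin gene Apln at -0.68 and -0.66 against 3.42 and 3.49, and Pdgfrb, the receptor of pericytes and Leydig progenitors, at -2.95 and -2.88 against 1.41 and 0.62. All 3 stood apart from whole testes. Angptl4, an inhibitor of lipoprotein lipase, rose by 3.75. Pgf did not pass, at a difference of -0.28. In other peptide families Pomc, the precursor of corticotropin and endorphin that germ cells express, fell from 2.85 and 2.90 to -0.62 and -0.96, and the cholecystokinin gene Cck, at 2.48 and 2.52 against 2.10 and 2.90, did not pass.

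Matrix gene lists differed in their counts. Of 27 laminin, nidogen and related genes 17 were higher and 5 lower (median 2.06; 2 to 3 lower when any 1 array was left out), Lamc1 from -1.18 and -1.26 to 2.29 and 2.14 and Lama4 by 3.18, while fibrillin 2 (Fbn2) fell from 0.98 and 0.97 to -3.25 and -3.48. Of 35 collagens 11 were higher and 18 lower (median -0.89): Col15a1 and Col16a1 went from 2.81 and 2.96 to -1.19 and -1.89 and from 4.83 and 4.97 to 1.75 and 1.47. The protease inhibitors Timp1, Timp2 and Timp3 rose by 3.20, 2.81 and 2.81, and Mmp2, a gelatinase gene, did not pass. Sparcl1, a matricellular gene, was at 1.82 and 1.73 against 6.08 and 5.82. Decorin, Dcn, did not pass.

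Junction lists differed. Of 23 tight junction genes 9 were higher and 9 lower, with a median of -0.20 that turned to 0.12 with normexp, where 3 were lower, and 5 were lower without whole testes array 2. The largest rise was that of Cldn5, the endothelial claudin (difference 3.83, SE 0.56), followed by Cgnl1 (3.05) and Prkci (2.83). Probes of Cgnl1 disagreed in direction, and its rise is by the brightest one. Cldn13 fell by 3.40, from -1.85 and -1.75 to -4.87 and -5.54. Among 32 genes of other junctions and of the ectoplasmic specialization, the anchor of spermatids to Sertoli cells, 18 were higher and 6 lower (median 1.06): the gap junction gene Gja1 rose by 2.99 and the actin regulator Eps8 by 3.05, the plakoglobin gene Jup fell from 1.22 and 1.32 to -1.87 and -2.26, and the espin gene Espn did not pass, at -1.14 and -1.24 against -1.15 and -0.87.

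Most genes of germ cell programmes, from meiosis to the sperm tail, fell. All 14 piRNA pathway genes tested (21 listed) were lower, with a median of -3.22, against 40.8% of all genes. Of 22 genes of the synaptonemal complex, which holds paired chromosomes, and of recombination 21 were lower and 1 was higher (median -2.96). All 25 genes of spermatid chromatin and transcription were lower (median -2.70), as were 25 of 26 of the axoneme and flagellum (median -2.96) and 27 of 28 of the acrosome (median -2.69). Piwil1 was at 2.92 and 2.96 in whole testes and at -1.88 and -2.22 in sorted cells, Sycp2, of the synaptonemal complex, at 2.31 and 2.38 against -1.28 and -1.81, and Dnah8, a dynein of the sperm tail, at 8.06 and 7.96 against 3.87 and 3.46. No sorted value reached a whole testes value in these 3.

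The transition protein gene Tnp1 was at 9.39 and 9.52 in whole testes and at 7.87 and 6.99 in sorted cells, with its spot saturated on 2 of the 4 arrays, so no size of difference is read from it. Prm2, another packing protein gene, differed by -1.46 (SE 0.31). The acrosome trafficking gene Gopc did not pass, at a difference of -0.44. Cell cycle genes were lower in 26 of 39 cases and higher in 9 (median -2.06), Aurka from 5.34 and 5.35 to 2.08 and 1.78 and Bub1b from 1.46 and 1.37 to -1.91 and -2.36. Rb1 and Mcm6 did not pass. Kinesins, motors of the spindle and of transport, had 19 lower and 5 higher of 27: Kif17, Kif15 and Kif2c fell by 3.72, 3.70 and 3.12, whereas the transport motors Kif3c, Kif5a and Kif1b rose by 2.82, 2.70 and 2.64. Of 27 ADAM proteases 18 were lower and 7 higher, the sperm surface gene Adam18 at 5.23 and 5.26 against 1.96 and 1.58, and Adam23 and Adam8 higher by 4.10 and 3.96.

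Many enzymes of the testis exist as a widely expressed gene and a germ cell relative, which allows both to be read in the same RNA. Of 51 such pairs written out 38 could be measured. Germ cell members were lower in 37 of 38 pairs and higher in none (median -2.86), and the exception, Ldhc, did not pass. Of the 36 distinct widely expressed members 19 were higher, 10 lower and 7 did not pass (median 0.90). In 20 pairs the wide member was higher while its germ cell relative was lower, and in 36 of 38 the wide member had the greater difference.

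**Figure D5:**
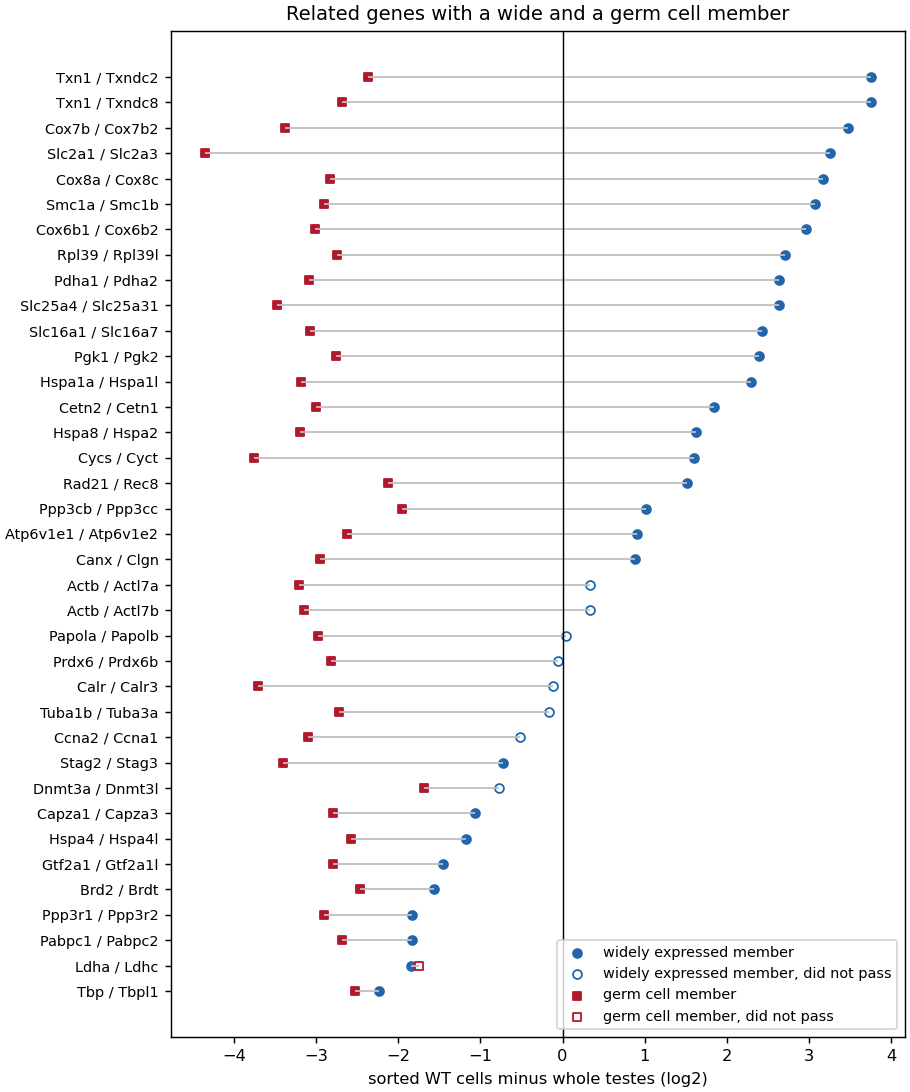
Difference (horizontal axis, log2, sorted minus whole testes) of the widely expressed (blue circles) and germ cell (red squares) member of 37 of the 38 related gene pairs, open symbols not passing. Germ cell members lie between -4.36 and -1.69, and widely expressed members between -2.24 and 3.76.

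Energy genes give examples. Pgk1, of glycolysis, was at 1.31 and 1.32 in whole testes and at 3.64 and 3.77 in sorted cells, and its retroposed germ cell relative Pgk2 at 6.51 and 6.50 against 4.02 and 3.47. Cytochrome c followed the same pattern, Cycs rising from 3.77 and 3.77 to 5.27 and 5.46 and the testis form Cyct falling from 4.64 and 4.66 to 1.07 and 0.72. Each gene's groups stood apart. The cytochrome oxidase subunits Cox7b, Cox8a and Cox6b1 rose by 3.48, 3.17 and 2.96 while Cox7b2, Cox8c and Cox6b2 fell by 3.38, 2.83 and 3.02. The glucose carrier Slc2a1 rose by 3.26, and Slc2a3, read on 1 whole testes array, fell by 4.36. Outside metabolism the cohesin gene Smc1a rose by 3.08 and its meiotic form Smc1b fell by 2.90, and the ribosomal gene Rpl39 rose by 2.71 while Rpl39l fell by 2.75. Ldha fell by 1.85, from 7.11 and 7.17 to 5.42 and 5.17.

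Housekeeping lists had small positive medians. Of 78 ribosomal protein genes 36 were higher and 10 lower, with a median of 0.31; quantile normalization gave 55 higher and 2 lower (median 0.67), and 4 were lower without whole testes array 2. Complex I genes of the respiratory chain had 19 higher and 3 lower of 33 (median 0.51), and 30 higher after quantile normalization (median 0.94). The X-linked Rps4x and Rpl10 led the ribosomal rises, by 3.38 and 3.30. Widely expressed glycolysis genes had 11 higher and 7 lower of 23: the lactate exporter gene Slc16a3 was at -1.51 and -1.47 against 3.28 and 3.06 and Aldoc rose by 4.56, while Hk1 fell from 3.08 and 2.96 to 0.15 and 0.21 and Tpi1, at 5.09 and 5.07 against 5.04 and 5.06, did not pass. Of 139 olfactory receptor genes that could be tested out of 884 on the array 20 were higher and 47 lower, but with normexp 7 and 5, and 30 were lower without whole testes array 2. Olfr78, a receptor of short-chain acids and lactate, was at least 15.8-fold higher. Potassium channel genes had 14 higher and 26 lower (12 with normexp) of 54, with Kcnk1 and Kcnd2 up 4.73 and 4.34 and Kcnj9 down from 1.59 and 1.46 to -2.26 and -2.66.

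With normexp background correction 2217 genes were 4-fold higher and 3093 4-fold lower, against 3887 and 5042. Gdnf did not pass under it. Probes of 1 gene disagreed in direction for Cgnl1 (from -2.90 to 3.06), Rxra (from -3.28 to 3.79), Stat5b (from -1.25 to 4.39), Ets1 (from -0.24 to 3.65) and Rfx7 (from -0.23 to 1.36) as well. P-values rest on the spread between 2 arrays a group, estimated over 10 arrays of 5 groups.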

How the data were processed

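RNA of whole testes and of sorted cells (0.2 ug total RNA a sample) was labelled with Cy3 and hybridised to Agilent 1-colour arrays, per the labels' protocols. The authors deposited scanner output in which each of 45018 spots has a background-corrected processed signal intensity, an uncorrected intensity, and marks for being well above background, saturated or an outlier; Agilent Feature Extraction 9.5.3.1 made it, per the file headers (9.5 per the submitters' processing notes). The deposited series value table held the same intensity at all 45018 spots. Control spots (1639) and outlier spots (170 to 274 on these 4 arrays) were left out, and spots of 1 probe were averaged. Of 41174 probes 22951 were named by accession and 67 by symbol or synonym from RefSeq; 18156 kept the file's name.

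Here the log2 intensity minus each array's 75th percentile was taken, with the brightest probe for each gene and genes well above background on both arrays of either group. limma 3.58.1 in R 4.3.3 fitted 10 arrays in 5 groups on 3 slides. The groups were whole testes, sorted WT cells, sorted Nanos3-knockout cells, and cultured Sertoli cells given vehicle or retinoic acid. Benjamini-Hochberg adjustment ran over 22910 genes (33370 gene names in all). A difference written "at least N-fold" sets the mean of the group that was measured against the higher of the dim probe's own signal and the lowest signal well above background, per array, in the other. In data simulated over 22832 genes, 100 genes were changed by 1 log2 unit and 100 by 2. Of these 42% and 76% were recovered, with 15 false calls. In the real data 79.2% of genes passed, a far larger share, and the adjusted p depends on that share. The simulated shares are therefore not the recovery of this comparison. The 2 arrays a group limit the precision.

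Named genes were the 12 largest rises and falls among genes with a symbol above background on all 4 arrays, up to 6 largest and 3 smallest differences in each list or family, both members of each measured pair, and known checks. Genes outside the rule were chosen after their values were seen: Anxa4, Birc5, Cfap298, Cyld, Dnaaf6, Gstm5, Gsto2, Gstt4, H2-Ab1, H2-DMa, H2-DMb1, H2-Eb1, Ifitm1, Isg15, Kif1b, Kif3c, Kif5a, Mdfic, Nrtn, Pifo, Stat4, Stk36 and Ttc26. Members, lists and families were chosen with earlier results of these data known. The search covered 12 motifs in the RefSeq promoter table (GRCm38.p6), 250 bases before each start, on both strands. An entry existed for 10707 tested genes. Only some of these motifs are described above. The AP-1 site, TGA, any base, TCA, stood before none of 31 immediate early genes with an entry, against 6.08% of tested genes. It stood before 6.95% of genes 4-fold higher and 7.41% of those 4-fold lower. The cAMP response element TGACGTCA stood before 3 of the 31 (9.68%), against 2.63% of tested genes. Alternatives changed the scaling, background correction, filter, probe rule, arrays fitted, variance prior, replicate block and the arrays left out. Results on some genes are not reported here.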

Additional observations from a re-analysis of the deposited data

How the results depend on the processing

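The counts of genes higher and lower stayed within 1.5 times of 8793 and 9356 under every alternative run, also with a 2-fold minimum (6904 and 7669). The 4-fold counts did so too, except with normexp background correction, which gave 2217 higher and 3093 lower against 3887 and 5042; the cause was not tested. With 1 array left out, the count of genes higher was 7785 to 8280 and lower 8370 to 8754, and at 4-fold 3743 to 3927 and 4640 to 5179. The replicate numbers shared by the groups marked only a number: deviations of same-numbered arrays from their group means correlated at r = -0.0068 across genes, and the replicate block gave 8704 higher and 9278 lower. The median difference over all genes tested, -0.062, became -0.193 when arrays were scaled to their medians and 0.048 under normexp, and small differences are relative to that shift. Of 250 named genes that passed, 238 kept their call under every alternative, 11 lost it under 1 or more (Cldn11, Egr3, Gdnf, Gstt4, H2-Ab1, Hspa1a, Ifitm1, Irx2, Lcn2, Ptgfr and Tlr4), and Jag1 reversed to 0.41 with the mean of detected probes. Of 39 that did not pass, 21 passed under some alternative, Rfx5 reversing to -0.67 with the mean of detected probes and Tpi1 to 0.47 with quantile normalization. Of 234 list counts 79 moved under 1 or more alternatives, most often with normexp (44). Medians of the tight junction, SOX, forkhead, TCF/LEF and GLI, BMP and activin antagonist, P450, olfactory receptor, histone and matricellular lists changed sign between scalings. Signal over background limits the dim genes: 1083 genes were not well above background on either whole testes array and 1194 on either sorted array.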
